A study of Drosophila melanogaster with 14 samples.

Results

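Mothers of the genotypes Slbp 10/12 and Slbp 10/15 share the allele Slbp 10 and differ in the second allele, and the comparison of their embryos asks which RNAs differ when Slbp 12 is exchanged for Slbp 15. A gene was compared if its mean was at least 5 normalised counts in either group. The normalised count is the read count of a gene divided by 1 size factor per library. Of the 15288 genes of the table, 7719 passed. A total of 7314 passed in both groups, 158 only through Slbp 10/12 and 247 only through Slbp 10/15, and these last 405 are low in the other group by construction. Just inside the limit 122 genes had a higher group mean of 5 to 6, of which 1 was called, and 198 genes with a higher mean of 4 to 5 lie just outside.

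Both groups are whole embryos of 0 to 180 min after egg laying, a window that pools syncytial and cellularizing stages. They were laid by transheterozygous mothers, Slbp 10/12 or Slbp 10/15, after crosses with Oregon R males, and each group has 2 libraries. Oregon R (wt) embryos and embryos of grp fs1 mothers, which lack normal Chk1 kinase, were collected over the same window with 2 libraries each and serve here to estimate the spread and to place each level. Whether replicates are separate embryo collections is not given in the sources used here, and p-values therefore cover just the spread between the libraries at hand, which may be technical. The effect of the second Slbp allele and that of the chromosome it sits on cannot be told apart. Whether the remaining chromosomes of the mutant stocks match is not given in the sources used here.

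SLBP, the stem-loop binding protein, binds the hairpin at the end of replication-dependent histone mRNAs, which carry no poly(A) tail, and is needed to cut these messages to their mature form. The fly egg is loaded by its mother with histone messages and proteins, which feed the rapid nuclear divisions of the syncytial embryo. Maternal RNAs are then cleared while the zygotic genome is switched on, so the RNA of a 0 to 180 min collection is a mixture of maternal and zygotic messages. In such bulk samples, fewer embryos of a stage and less RNA per embryo cannot be told apart.

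The targeted gene did not separate the allele combinations. Slbp had 211 and 236 normalised counts in the Slbp 10/12 libraries and 262 and 186 in the Slbp 10/15 libraries, against 2776 and 2873 in wt and 2470 and 2183 in grp fs1. The Slbp libraries overlapped each other and lay far below all others. The log2 difference of Slbp 10/12 minus Slbp 10/15 was 0.01 (SE 0.163, adjusted p = 0.966 from limma), with a 95% interval from -0.37 to 0.40. Against wt, Slbp was lower by log2 differences of -3.66 in Slbp 10/12 and -3.67 in Slbp 10/15. grp had 13977 and 13868 normalised counts in Slbp 10/12 and 13697 and 12828 in Slbp 10/15, with a 95% interval of the log2 difference from -0.14 to 0.28.

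Histone messages and the factors that mature them were not called either. Of 111 replication-dependent histone copies only 3 passed the filter. Most copies are near identical, so how the counting assigned their reads is uncertain. The one with the highest count, His2B:CG17949, had 590 and 502 normalised counts in Slbp 10/12, 607 and 359 in Slbp 10/15 and 2298 and 2207 in wt. The Slbp groups overlapped, with a log2 difference of 0.22 and a 95% interval from -0.30 to 0.74. Among 17 tested factors of histone mRNA 3-prime processing, Slbp included, 0 were called by limma. Their median log2 difference, 0.01, was the value of Slbp itself. Of these factors the elongation factor Spt6 had the highest count, at 13325 and 15471 normalised counts in Slbp 10/12 and 15261 and 16152 in Slbp 10/15.

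The libraries held 22204590 and 23410870 reads in Slbp 10/12 and 18758625 and 21264605 in Slbp 10/15. On log2 values Pearson's r across genes, which are not independent replicates, was 0.990 between the Slbp 10/12 libraries, 0.970 between the Slbp 10/15 libraries and 0.967 to 0.978 between libraries of different groups. The value for the Slbp 10/15 libraries lay within the range between groups. The Slbp 10/15 libraries differed from each other in genes that rise late. In the 634 genes at least 1 log2 unit higher in late than in early wt embryos, the median difference of replicate 1 minus replicate 2 was 0.37 in Slbp 10/15 and 0.05 in Slbp 10/12. The lists of late and cellularization genes are therefore given with and without each Slbp 10/15 library.

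By limma 493 genes differed at an adjusted p under 0.05, or 6.39% of the genes tested. Of these 264 were higher in Slbp 10/12 (3.42%) and 229 in Slbp 10/15 (2.97%), while the median log2 difference over all genes was -0.0041. Most differences were small, with a median size of 0.54 log2 units among the called genes. A total of 115 reached 1 log2 unit, 40 higher in Slbp 10/12 and 75 higher in Slbp 10/15. Libraries of the groups did not overlap for all 493 called genes, but they did not overlap for 61.2% of all genes tested either (29.8% higher in Slbp 10/12 and 31.4% higher in Slbp 10/15). Among genes with a higher mean of 5 to 50 normalised counts 2.11% were called, against 7.64% of those at 500 to 5000.

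**Figure D1:**
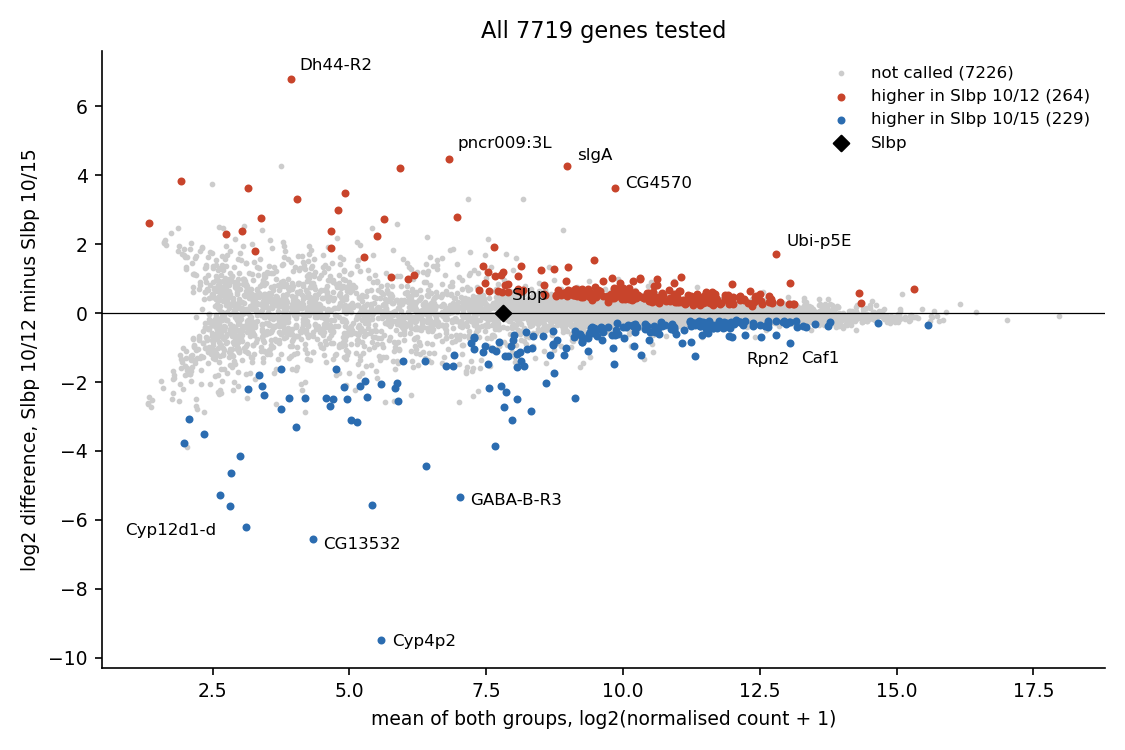
Each point is 1 of the 7719 genes, with its mean level on the x axis, in log2(normalised count + 1), and the log2 difference of Slbp 10/12 minus Slbp 10/15 on the y axis. The 264 red and 229 blue genes pass an adjusted p of 0.05 in limma, Slbp itself (black) lies at 0.01, and the named genes Dh44-R2 and Cyp4p2 mark the extremes at 6.80 and -9.48.

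The number of calls rests on having 2 libraries per Slbp group. Leaving out 1 Slbp library leaves its group with 1, whose spread is assumed to be that of the other groups, and 34 to 81 genes are then called. Of the 493 genes 392 were called in none of these 4 fits. A set of 21 was called under each of the 18 alternatives, 8 of which leave out a library. Of these 10 were higher in Slbp 10/12 and 11 in Slbp 10/15. They were chosen after their values were seen, and include enzymes, transporters, trafficking proteins, a kinetochore protein and a histone chaperone subunit.

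Among the 21, slgA, the proline dehydrogenase of mitochondria, had 1902 and 2506 normalised counts in Slbp 10/12, 102 and 124 in Slbp 10/15 and 4506 and 4154 in wt. Both Slbp groups were below wt, and Slbp 10/12 was 19.5-fold above Slbp 10/15 (log2 difference 4.27, SE 0.147, adjusted p = 3.9e-05 from limma). The hairpin RNA pncr009:3L, named hpRNA:CR33940 in the BDGP6.54 annotation, had 535 and 530 in Slbp 10/12, 23.1 and 22.8 in Slbp 10/15 and 1079 and 1092 in wt. Its order of the 3 genotypes is that of slgA, with a log2 difference of 4.48 (SE 0.131, adjusted p = 2.5e-05 from limma). GstD3, a glutathione transferase, repeated it with 282 and 382 in Slbp 10/12, 48.3 and 44.5 in Slbp 10/15 and 1328 and 1232 in wt. Reads of GstD3 and its close neighbour copy GstD2 may be split between them by the counting.

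Ubi-p5E, a polyubiquitin gene on chromosome X from 6276876 to 6279647 (BDGP6.54), was also among the 21. It had 12491 and 13013 normalised counts in Slbp 10/12, 3686 and 4158 in Slbp 10/15, 15341 and 14478 in wt and 20506 and 18680 in grp fs1. Slbp 10/15 alone stood low, and the log2 difference was 1.70 (SE 0.0771, adjusted p = 1.8e-04 from limma). Nnf1b, a subunit of the kinetochore, had 685 and 639 in Slbp 10/12, 254 and 293 in Slbp 10/15 and 455 and 459 in wt, so wt lay between the groups. CG34195, CG8027 (Gnptab in BDGP6.54), CG11164, CG6812 (Sfxn2, a sideroflexin) and fok made up the rest of those higher in Slbp 10/12, with log2 differences from 0.78 for fok to 1.91 for CG34195.

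GABA-B-R3, a metabotropic GABA receptor, was the largest of the 11 that were higher in Slbp 10/15. It had 826 and 709 normalised counts there, 10.1 and 31.5 in Slbp 10/12, 8.14 and 13.1 in wt and 142 and 182 in grp fs1. Slbp 10/15 thus stood apart from Slbp 10/12 and wt alike (log2 difference -5.34, SE 0.497, adjusted p = 0.0053 from limma). CG10089 showed the same order, with 545 and 723 in Slbp 10/15, 111 and 112 in Slbp 10/12 and 138 and 153 in wt.

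Other members of the 11 were low in Slbp 10/12 instead. Eip75B, a nuclear receptor of the ecdysone response, had 278 and 199 normalised counts in Slbp 10/12, 1480 and 1123 in Slbp 10/15 and 853 and 1250 in wt (log2 difference -2.45, SE 0.251, adjusted p = 0.0065 from limma). Rab8, a small GTPase of exocytosis, had 1813 and 1503 in Slbp 10/12, 3842 and 3934 in Slbp 10/15 and 3545 and 3316 in wt. Snx3, a sorting nexin that recycles the Wnt carrier Wntless, had 1839 and 1780 in Slbp 10/12, 3209 and 3277 in Slbp 10/15 and 2760 and 2846 in wt. In these genes the Slbp 10/12 libraries lay below both libraries of each other genotype shown. CG11961 and CG11577 had log2 differences of -1.73 and -1.0, and Caf1 is described further on.

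A pair of UDP-glycosyltransferases and an esterase, enzymes of detoxification, complete the 21. CG17322 (Ugt36E1 in BDGP6.54) had 102 and 68.2 normalised counts in Slbp 10/12, 682 and 775 in Slbp 10/15 and 341 and 350 in wt. CG30438 (Ugt50B3) had 11.9 and 9.61 in Slbp 10/12, 122 and 89.1 in Slbp 10/15 and 218 and 160 in wt. alpha-Est10 had 66.8 and 60.3 in Slbp 10/12, 172 and 196 in Slbp 10/15 and 1091 and 1154 in wt. In all 3 the Slbp 10/12 libraries were lowest of the genotypes shown, while wt lay between the groups for CG17322 and above both for the others. For CG17322 grp fs1 had 84.9 and 98.9, which overlaps Slbp 10/12.

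**Figure D2:**
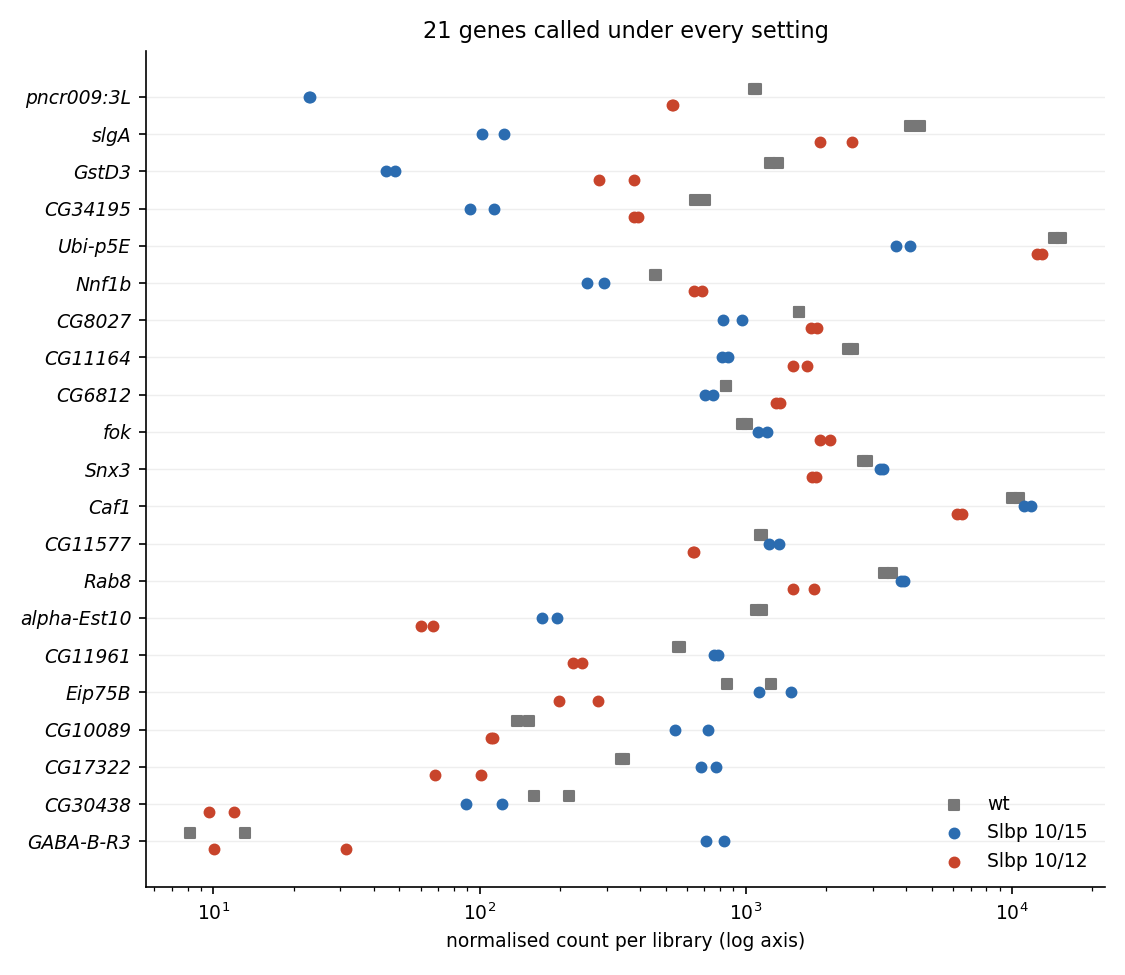
Normalised counts on a log axis for the 21 genes called under every alternative, with 1 point per library of Slbp 10/12 (red), Slbp 10/15 (blue) and wt (grey), ordered by log2 difference. In the upper 10 genes the red points lie right of the blue ones, from 4.48 log2 units for pncr009:3L to 0.78 for fok, and in the lower 11 they lie left of them, down to -5.34 for GABA-B-R3.

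The largest differences were of genes that were nearly silent in 1 group. Cyp4p2, a cytochrome P450, had 1.83 and 0 normalised counts in Slbp 10/12, 1293 and 1114 in Slbp 10/15 and 6.98 and 0 in wt. The ratio was 1341, with a 95% exact interval from 371 to 11080 that covers counting error only, since Slbp 10/12 had 2 reads. Dh44-R2, a receptor of the diuretic hormone Dh44, had 156 and 157 in Slbp 10/12, 0 and 0.99 in Slbp 10/15 and 32.6 and 18.5 in wt. With 1 read in Slbp 10/15 its ratio of 301 has an interval from 53.6 to 11910. CG13532 followed with 0.915 and 0.874 in Slbp 10/12 against 328 and 94.0 in Slbp 10/15.

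The other genes of largest difference among those with a higher mean of at least 50 were, toward Slbp 10/15, Cyp12d1-d, CG30460, GABA-B-R3, spirit, CG12200 (narya), CG30438, CG17322, CG13713, CG12290 and CG13101, with log2 differences from -6.20 to -2.73. CG30460 had 3.66 and 6.99 normalised counts in Slbp 10/12, 291 and 285 in Slbp 10/15 and 155 and 167 in wt. spirit, a serine protease of the Toll cascade, had 33.9 and 5.24 in Slbp 10/12, 468 and 215 in Slbp 10/15 and 2.33 and 8.73 in wt. Its libraries did not overlap between groups but spread widely within both.

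Toward Slbp 10/12 they were pncr009:3L, slgA, CR40469, CG4570, CG6574, CG42402, CG34323, GstD3, CG4842, CR15821 and GstD2, with log2 differences from 4.48 to 2.23. CG4570 had 3265 and 2850 normalised counts in Slbp 10/12, 418 and 142 in Slbp 10/15 and 6929 and 6622 in wt. CG6574, its neighbour on chromosome 3R, had 90.6 and 89.1 in Slbp 10/12, 15.4 and 2.97 in Slbp 10/15 and 246 and 242 in wt. Both had the order of slgA, with wt highest and Slbp 10/15 lowest. CG34323 had instead 73.2 and 80.4 in Slbp 10/12 against 9.88 and 7.92 in Slbp 10/15 and 8.14 and 5.45 in wt, so that Slbp 10/12 alone was high.

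Messages of the proteasome, the protease that degrades ubiquitin-tagged proteins, were mostly higher in Slbp 10/12. Of 46 listed subunit genes 34 were tested, and 12 were called higher in Slbp 10/12 and 1 higher in Slbp 10/15, or 38.2% against 6.39% of all genes. A total of 33 of the 34 had a log2 difference above 0, with a median of 0.26 against -0.0041 for all genes. All listed subunits together summed to 234880 and 222400 normalised counts in Slbp 10/12, 194270 and 192880 in Slbp 10/15, 186760 and 182310 in wt and 218760 and 205740 in grp fs1. The Slbp 10/12 sums were highest, and those of Slbp 10/15 lay between wt and grp fs1. The individual calls did not withstand the loss of a Slbp library: 1 subunit was called higher in Slbp 10/12 without its replicate 1, and 0 without its replicate 2 or without either Slbp 10/15 library, while 32 members stayed above 0 in each of these fits with medians of 0.20 to 0.33.

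The subunits called higher were mainly of the regulatory particle, which recognizes and unfolds substrates. Rpn11, its deubiquitinase, had 3600 and 4222 normalised counts in Slbp 10/12, 2524 and 2591 in Slbp 10/15 and 4150 and 3914 in wt (log2 difference 0.61, SE 0.0959, adjusted p = 0.021 from limma). Slbp 10/15 was low and Slbp 10/12 overlapped wt. Rpn7, a lid subunit, and Rpt5, an ATPase of the base, were next with log2 differences of 0.54 and 0.53. Rpn10, Rpn8, Rpn9, Rpn3, Rpt3 and Rpt2 were also called, and of the catalytic core Prosbeta1, Prosbeta7 and Prosalpha7, with log2 differences of 0.32, 0.30 and 0.26.

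The one subunit called in the opposite direction was Rpn2, a scaffold of the regulatory particle. It had 5419 and 5989 normalised counts in Slbp 10/12, 9165 and 8417 in Slbp 10/15, 7772 and 8682 in wt and 11045 and 8976 in grp fs1. Slbp 10/12 stood below the 6 other libraries. The log2 difference was -0.62 (SE 0.111, adjusted p = 0.028 from limma). Against wt Rpn2 differed by -0.53 in Slbp 10/12 (adjusted p = 0.012 from limma) and by 0.10 in Slbp 10/15 (adjusted p = 0.49). Its call was lost with no filter and without each of the 4 Slbp libraries.

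Rpn2 is the neighbour of Slbp. In BDGP6.54, Slbp lies on the minus strand of chromosome 3R from 29152074 to 29153266 and Rpn2 on the plus strand from 29153524 to 29157255, so that both are transcribed away from the 257 bases between them. On a scale that allows for gene length, FPKM, Rpn2 had a level of 78.4 in Slbp 10/12, the lowest of 31 subunits with a wt mean over 1000 normalised counts. From the lowest it ranked 8 in Slbp 10/15 at 120.9, 2 in wt at 113.1 and 4 in grp fs1 at 137.6. The Slbp 10/12 level was 28.5% of the median FPKM of the 30 others, against 52.3% in Slbp 10/15, 56.3% in wt and 61.8% in grp fs1. That median was itself highest in Slbp 10/12, at 274.9 against 231.2 in Slbp 10/15, 200.9 in wt and 222.7 in grp fs1.

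**Figure D3:**
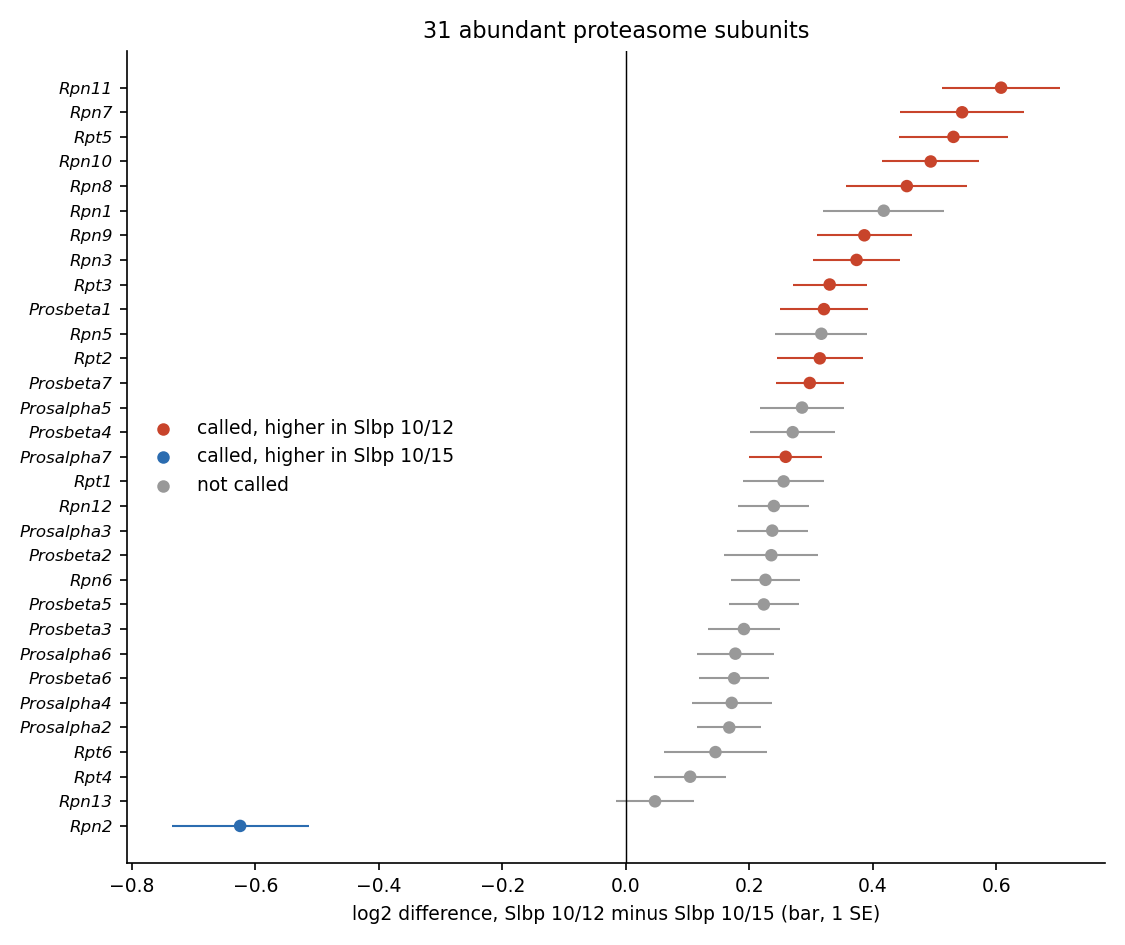
Log2 difference of Slbp 10/12 minus Slbp 10/15 for the 31 proteasome subunits with a wt mean over 1000 normalised counts, with bars of 1 SE from limma and colour for the calls. A total of 30 subunits lie right of 0, up to 0.61 for Rpn11, and Rpn2 lies alone on the left at -0.62.

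Of 10 other genes of the ubiquitin and proteasome pathway, chosen after values were seen, 4 were called higher in Slbp 10/12 and 0 lower, against 6.39% of all genes called, and nothing is read from this count since the choice used the values. Besides Ubi-p5E these were Uch-L5, a deubiquitinase that docks on the proteasome, at 5330 and 5452 normalised counts in Slbp 10/12 against 2368 and 3779 in Slbp 10/15, p47, a cofactor of the segregase TER94, at 3439 and 3701 against 2515 and 2538, and Npl4, another such cofactor, at 4465 and 4736 against 3420 and 3055. TER94 itself and the second polyubiquitin gene Ubi-p63E were not called, with 95% intervals of the log2 difference from -0.12 to 0.23 and from -0.19 to 0.14. cnc, whose long isoform activates proteasome genes in the fly, had 9177 and 9217 in Slbp 10/12 and 8033 and 7406 in Slbp 10/15. Its log2 difference of 0.25 (adjusted p = 0.045 from limma) was not called in any fit that left out a library.

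**Figure D4:**
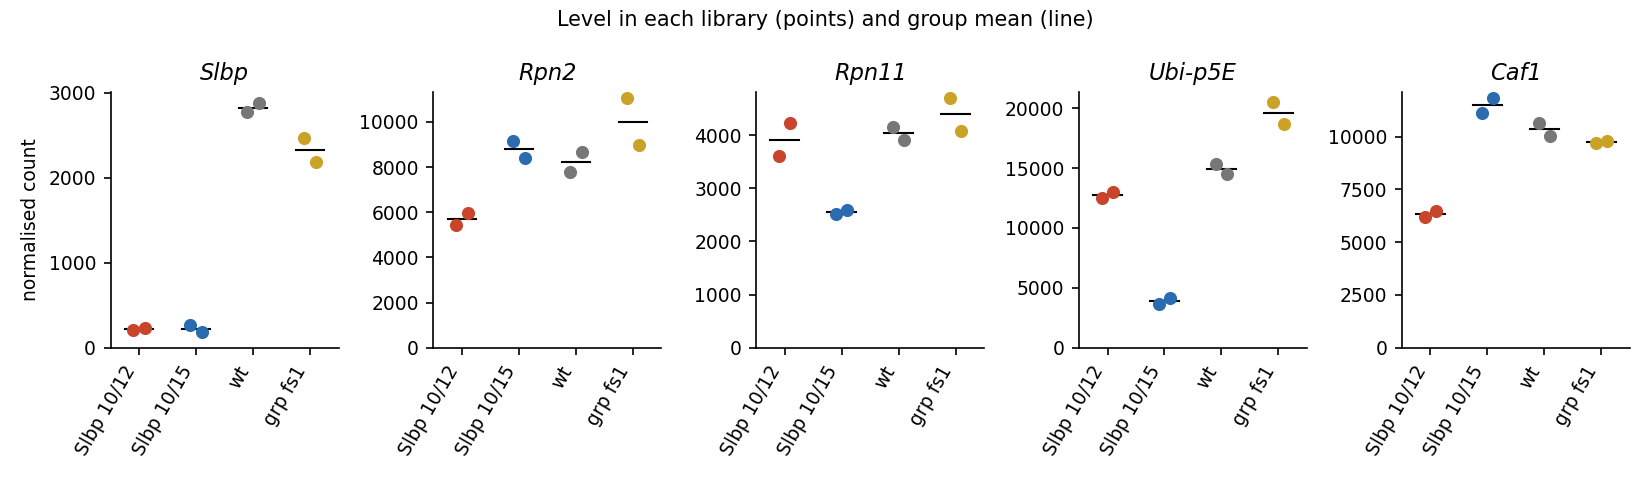
Normalised counts of Slbp, Rpn2, Rpn11, Ubi-p5E and Caf1 in each of the 8 libraries, on linear axes that start at 0, with points for libraries and a line for each group mean. Slbp is low in both Slbp groups, Rpn2 and Caf1 are lowest in Slbp 10/12 (5419 and 5989, and 6211 and 6491), and Rpn11 and Ubi-p5E are lowest in Slbp 10/15 (2524 and 2591, and 3686 and 4158).

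Of 23 replacement histones and histone chaperones only Caf1 was called (4.35%, near the 6.39% of all genes). Caf1, or p55, is the histone-binding subunit shared by the factor that assembles chromatin behind replication forks, by nucleosome remodellers and by Polycomb complexes. It had 6211 and 6491 normalised counts in Slbp 10/12, 11127 and 11835 in Slbp 10/15, 10661 and 10030 in wt and 9705 and 9806 in grp fs1. The Slbp 10/12 libraries were lowest by a wide gap, and the level was 0.553 of that in Slbp 10/15 (log2 difference -0.85, SE 0.0566, adjusted p = 0.0012 from limma). Against wt it fell by 0.70 log2 units in Slbp 10/12 (adjusted p = 4.0e-04 from limma), and in Slbp 10/15 its log2 difference was 0.15 (adjusted p = 0.061). The gene lies on chromosome 3R from 15225576 to 15227564 (BDGP6.54). The replacement histone His2Av had 14930 and 13878 in Slbp 10/12 and 15891 and 17010 in Slbp 10/15 (adjusted p = 0.095 from limma).

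Lists of the cell cycle and of DNA damage held 3 called genes. Of 14 checkpoint genes tested, nbs and mre11, whose products form 1 complex at DNA breaks, were called in opposite directions, which is 14.3% against 6.39% of all genes. nbs had 1407 and 1465 normalised counts in Slbp 10/12 and 1044 and 1046 in Slbp 10/15, and mre11 had 1757 and 1585 against 2434 and 2162. The groups did not overlap in either gene, and each call was lost without any one of the 4 Slbp libraries. Of 28 MCM and origin licensing genes 1 was called (3.57%, against 6.39% of all genes), Mcm7, at a log2 difference of -0.26. By limma 0 of 22 mitotic cyclins, phosphatases and inhibitors and 0 of 14 p53 and apoptosis genes were called, with medians of -0.08 and 0.10. Libraries were higher in Slbp 10/15 without overlap for 50% of the mitotic genes and 42.9% of the MCM and licensing genes, against 31.4% of all genes.

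Cytochrome P450 and glutathione transferase genes, which process lipids, hormones and foreign compounds, differed in both directions. Of 62 tested, 3 were called higher in Slbp 10/12 (Cyp6a17, GstD3 and GstD2) and 5 higher in Slbp 10/15 (Cyp4p2, Cyp12d1-d, Cyp4p1, GstE11 and GstS1), or 12.9% against 6.39% of all genes, with a median of 0.07. Of the 8 called genes 4 (Cyp6a17, Cyp4p2, Cyp12d1-d and Cyp4p1) passed the filter only through the group where they are high, against 25 of the 493 called genes in all, so nothing is read from the share. Cyp12d1-d was at 0 in both Slbp 10/12 libraries, at 65.9 and 80.2 in Slbp 10/15 and at 4.65 and 4.36 in wt, so that Slbp 10/15 was at least 54.7-fold higher, counting 3 reads over the Slbp 10/12 group as the floor. Its near-identical copy Cyp12d1-p had 11.9 and 3.50 in Slbp 10/12, 34.0 and 35.6 in Slbp 10/15 and 74.5 and 63.3 in wt, and was not called (adjusted p = 0.060 from limma). The assignment of reads between the copies is uncertain. Cyp6a17 went the other way, with 27.5 and 32.3 in Slbp 10/12 and 1.10 and 1.98 in Slbp 10/15.

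Genes of the piRNA pathway, which silences transposons in the germ line and is supplied to the egg, were also called in both directions. Of 25 tested, 4 were higher in Slbp 10/12 and 2 in Slbp 10/15, or 24.0% against 6.39% of all genes, with a median of 0.04. armi, an RNA helicase of piRNA processing, had 6876 and 7090 normalised counts in Slbp 10/12, 4860 and 4662 in Slbp 10/15 and 4534 and 4618 in wt (log2 difference 0.55, SE 0.0683, adjusted p = 0.011 from limma). del, piwi and tud followed with log2 differences of 0.42, 0.39 and 0.27. rhi, the chromatin protein that marks piRNA clusters and a partner of del, was called in the opposite direction, with 1230 and 1308 in Slbp 10/12, 1790 and 1944 in Slbp 10/15 and 998 and 1049 in wt. zuc, the nuclease that cuts piRNA precursors, had a log2 difference of -0.41. Without 1 Slbp library 0 to 2 of the 25 were called.

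Cytosolic ribosomal protein genes leaned slightly toward Slbp 10/15. Of 85 tested, 80 had a log2 difference below 0, with a median of -0.12, and the libraries were higher in Slbp 10/15 without overlap for 67 of 85, or 78.8%, against 31.4% of all genes. Only RpL3 and RpS9 were called by limma, with log2 differences of -0.35 and -0.29. TMM scaling, which shifts all genes by a median of -0.03, called 6 and DESeq2 called 25 of them higher in Slbp 10/15. No member was called by limma with no filter, with a mean of at least 5 in any genotype, with only the 4 Slbp libraries, or without any one of the wt or Slbp libraries, and in each of these fits the median lay between -0.14 and -0.10.

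Genes called higher in Slbp 10/12 tended to be higher in early than in late wt embryos, as maternal messages that are later cleared are. The 6 wt libraries of staged embryos, which took no part in the comparison, give for each gene a log2 difference of late (90 to 180 min) minus early (0 to 45 min) embryos. Its median was -0.56 for the 264 genes higher in Slbp 10/12, 0.03 for the 229 genes higher in Slbp 10/15 and -0.04 for all genes. Of the 264 genes 26.1% were at least 1 log2 unit higher in early embryos, against 8.56% of all genes. Early libraries are whole embryos and late ones are nuclear and cytoplasmic extracts, so stage and fractionation cannot be told apart in this readout.

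The study's own lists of early and late genes, chosen on those staged libraries, give the members by name. Only members matched in the table compared here are counted, which are fewer than the study reports. Of 351 early genes 136 were tested, 18 were called higher in Slbp 10/12 and 1 higher in Slbp 10/15, or 14.0% against 6.39% of all genes, with a median of 0.34. Among the 18 were Jra, the fly Jun, at 1151 and 1270 normalised counts in Slbp 10/12 and 726 and 762 in Slbp 10/15, the phosphatase gene cdc14 at 1021 and 1299 against 728 and 743, and Cnb at 384 and 530 against 165 and 182. Wild type lay at 1049 and 1086 for Jra, 1151 and 1223 for cdc14 and 348 and 556 for Cnb, so that the Slbp 10/15 libraries were the lowest in all 3. BicC, an RNA-binding regulator of maternal messages, had 22500 and 23987 in Slbp 10/12, 18817 and 19080 in Slbp 10/15 and 32890 and 31914 in wt, and was low in both. Without 1 Slbp library 1 to 3 early genes were called higher in Slbp 10/12, and the median stayed between 0.24 and 0.50.

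Of 335 late genes 172 were tested, 0 were called higher in Slbp 10/12 and 14 higher in Slbp 10/15 (8.14%, near the 6.39% of all genes), with a median log2 difference of -0.55. Of the 14, zen2, CG43659, Or71a and CG16813 passed the filter only through Slbp 10/15. The direction of the median rests on 1 library. The late genes summed to 11167 and 9496 normalised counts in Slbp 10/12, 27391 and 8942 in Slbp 10/15 and 124220 and 120200 in wt, so that only replicate 1 of Slbp 10/15 was above Slbp 10/12. Without it the median was 0.38 and 8 late genes were called higher in Slbp 10/12 and 1 higher in Slbp 10/15. Without replicate 2 the median was -1.49, and 0 were called higher in Slbp 10/12 and 1 higher in Slbp 10/15. Other lists of zygotic genes used in the study had other medians. For 169 tested genes of De Renzis et al. it was 0.18, with 4 called, all higher in Slbp 10/15 (2.37%). Their median counts were 36.6 and 37.6 in the Slbp 10/12 libraries and 90.0 and 12.9 in those of Slbp 10/15. For 106 tested genes of Lecuyer et al. it was -0.0081, with 3 called, all higher in Slbp 10/15 (2.83%). The share of embryos at each stage in a collection was not measured, and its part in these differences was not tested.

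For 56 of the 172 tested late genes both Slbp 10/15 libraries lay above both of Slbp 10/12 (32.6%, near the 31.4% of all genes). Nothing is therefore read from that share, and the genes given here were picked from the called ones. tsg, a secreted regulator of BMP signalling in the dorsal embryo, had 23.8 and 14.0 normalised counts in Slbp 10/12, 73.6 and 76.2 in Slbp 10/15 and 407 and 403 in wt (log2 difference -1.98, SE 0.365, adjusted p = 0.030 from limma). CG13711 had 11.9 and 12.2 in Slbp 10/12, 83.4 and 62.4 in Slbp 10/15 and 168 and 153 in wt. Arc1, which encodes a capsid-forming protein, had 985 and 704 in Slbp 10/12, 2157 and 1715 in Slbp 10/15 and 4466 and 4164 in wt. In each the order was wt, then Slbp 10/15, then Slbp 10/12. The call of tsg was lost without any one of the 4 Slbp libraries, with only those 4 and with the replicate number as a block, that of Arc1 without either Slbp 10/15 library or Slbp 10/12 replicate 2, and that of CG13711 without either Slbp 10/12 library.

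**Figure D5:**
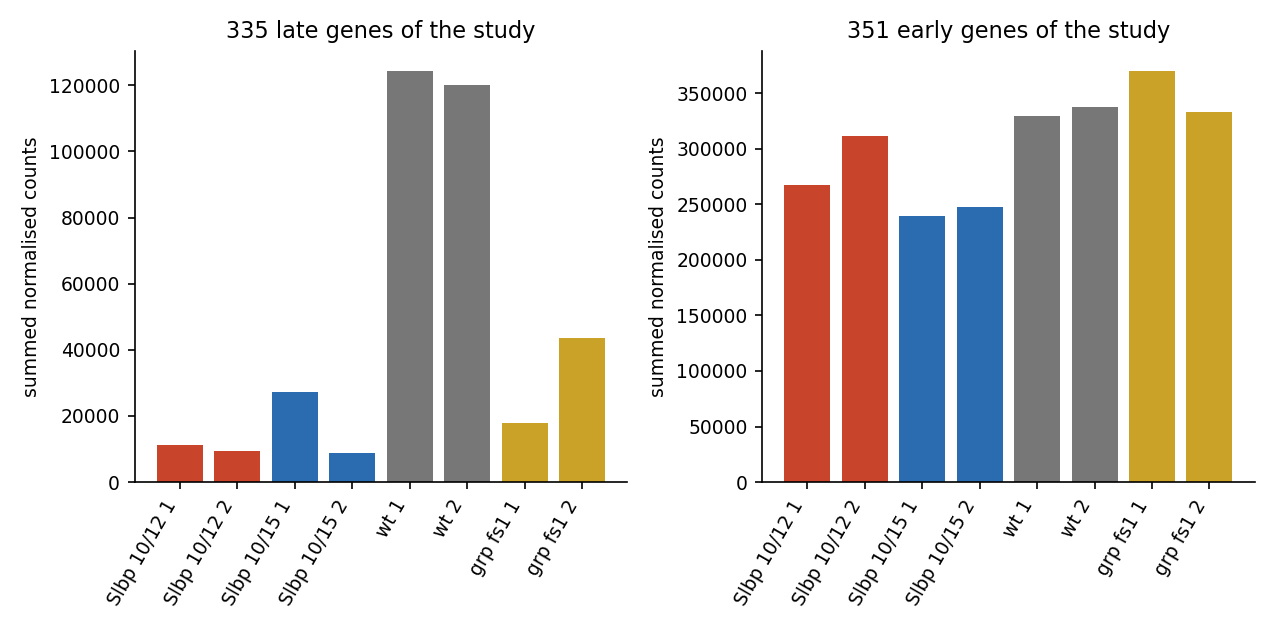
Summed normalised counts of the 335 listed late genes (left) and the 351 listed early genes (right) in each of the 8 libraries, with bars from 0 and 2 libraries per genotype. For late genes replicate 1 of Slbp 10/15 (27391) stands above replicate 2 (8942) and both Slbp 10/12 libraries, while for early genes both Slbp 10/15 libraries (239730 and 247770) lie below both of Slbp 10/12 (267680 and 311600).

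Patterning genes, whose zygotic transcription builds the body plan, gave 3 calls among 68 tested (4.41%), near the 6.39% of all genes. Of 16 gap and head genes cnc was called, of 9 genes listed as pair-rule Ten-m, and of 29 dorsoventral zygotic genes zen2. In early wt embryos cnc and Ten-m already had means of 8635 and 3037 normalised counts, against 35.7 for zen2. Maternal and zygotic messages of cnc and Ten-m cannot be told apart here. The homeobox gene zen2 had 3.66 and 4.37 normalised counts in Slbp 10/12, 15.4 and 27.7 in Slbp 10/15 and 129 and 133 in wt. zen2 passed the filter only through Slbp 10/15, and its call was lost without any one of the 4 Slbp libraries. Ten-m, a teneurin of the cell surface, had 2793 and 3462 in Slbp 10/12 against 4715 and 5170 in Slbp 10/15 (log2 difference -0.67, SE 0.126, adjusted p = 0.031 from limma). By limma 0 of 7 segment polarity genes and 0 of 8 Hox genes and cofactors were called. There the Slbp 10/15 libraries lay far apart, as in ptc, the Hedgehog receptor, at 278 and 3.96, with 68.7 and 90.9 in Slbp 10/12. Of 11 zygotic cellularization genes 0 were called by limma, although 10 were below 0 with a median of -0.94. Without Slbp 10/15 replicate 1 the median was -0.08 with 9 below 0, and without replicate 2 it was -1.38 with 10 below 0. Sry-alpha, needed to build the furrow canals, had 416 and 214 in Slbp 10/12 and 1082 and 306 in Slbp 10/15, which overlap.

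Germ plasm messages, which the mother supplies to the egg, were abundant in all Slbp libraries, with nos at 11707 and 11575 normalised counts in Slbp 10/12 and 10286 and 9826 in Slbp 10/15, and osk at 26383 and 24306 against 23496 and 19937. The muscle and neuron markers Mhc and elav were low there. Mhc, the muscle myosin heavy chain, had 10.1 and 3.50 in Slbp 10/12 and 12.1 and 18.8 in Slbp 10/15, against 6053 and 6787 in wt. elav, a marker of neurons, had 37.5 and 43.7 in Slbp 10/12 and 75.8 and 7.92 in Slbp 10/15, against 700 and 973 in wt. Not all tissue genes lay below wt. The cuticle gene Cpr49Ae had 40.3 and 22.7 in Slbp 10/12, 56.0 and 54.4 in Slbp 10/15 and 1.16 and 3.27 in wt. Fbp1, of the larval fat body, had 11.9 and 16.6, 7.68 and 25.7, and 2.33 and 1.09. Median log2 differences from wt in Slbp 10/12 and Slbp 10/15 were -1.65 and -3.09 for cuticle genes. For larval fat body and gut genes they were -1.48 and -0.18. By limma 0 genes were called between the Slbp groups among 10 muscle, 7 neuron, 6 cuticle, 8 eggshell and yolk, 3 larval fat body and gut and 3 antimicrobial genes.

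The called genes were also placed against wt. Slbp 10/12 differed from wt in 2751 of the 7719 genes (35.6%, with 18.2% higher and 17.5% lower) and Slbp 10/15 in 3830 (49.6%, with 24.4% higher and 25.2% lower), and both comparisons share the wt libraries. Of the 264 genes higher in Slbp 10/12, 151 were called against wt only in Slbp 10/15 and 44 only in Slbp 10/12. A further 56 were called in both and 13 in neither. Slbp 10/12 was nearer to wt for 190. Of the 229 genes higher in Slbp 10/15, 79 were called only in Slbp 10/15 and 70 only in Slbp 10/12. Another 69 were called in both and 11 in neither, and Slbp 10/12 was nearer to wt for 108. These genes were chosen on the same Slbp libraries, and the share of all genes nearer to wt was not computed. Nothing is therefore read from these counts. The 23 muscle sarcomere genes summed to 45652 and 48875 normalised counts in wt and 16104 to 17135 in the Slbp libraries. Most of the Slbp sums came from Tm1 and flr, which early wt embryos also held. Their means were 9229 and 6343 in Slbp 10/12, 9951 and 6199 in Slbp 10/15 and 9358 and 6028 in wt. The median of tested members was 8.7 to 17.6 in the Slbp libraries, against 3963 and 4692 in wt. The part of older-stage messages in the differences from wt was not tested.

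Called genes, 6.39% of all genes tested, lay on every main chromosome arm. They made up 7.81% of tested genes on 2L, 6.26% on 2R, 6.61% on 3L, 5.56% on 3R, which carries Slbp, and 5.89% on X. On chromosome 4 they were 7 of 75 (9.33%), all higher in Slbp 10/15, against 2.97% of all genes called in that direction. One was Rfabg, the lipoprotein precursor apolpp, with 83.3 and 87.4 normalised counts in Slbp 10/12, 290 and 529 in Slbp 10/15 and 4712 and 5293 in wt. Among the 100 tested genes nearest Slbp, 50 on each side, 4 were called (4.0%), all higher in Slbp 10/15. Over all genes 6.39% were called, and 2.97% were called higher in Slbp 10/15, so nothing is read from this count. The 4 were Rpn2, the aminopeptidase gene SP1029, the condensin subunit gene Cap-D2 and the kinesin gene ncd.

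Some called genes, chosen after their values were seen, were neighbours. Of those named here Cyp4p2, Cyp4p1, bbx, CG32212 and Gsc passed the filter only through the group where they are high. Nothing is therefore read from their being neighbours. Cyp4p2 and Cyp4p1 lie on 2R from 9237512 to 9239831 and from 9240041 to 9242139 (BDGP6.54), and Cyp4p1, at 0 in both Slbp 10/12 libraries and at 38.4 and 36.6 in Slbp 10/15, was at least 27.9-fold higher there. slgA is preceded on X by bbx, which had 13.7 and 13.1 in Slbp 10/12 and 3.29 and 0.99 in Slbp 10/15. CG32212 lies within pncr009:3L on the other strand, and since use of strand in counting is not given in the sources used here, their reads cannot be told apart. On 2L 5 tested genes in a row were called, in both directions: Gsc (-2.77), CG13689 (1.20), GABA-B-R3 (-5.34), Nnf1b (1.28) and the helicase gene Dbp21E2 (0.50), given as log2 differences. They span 583540 to 813380 in BDGP6.54. Over all 7513 pairs of adjacent tested genes on one arm, both were called in 42, of which 25 had the same direction. With 6.39% of all genes called, some such pairs arise without any link between neighbours.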

How the data were processed

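Ribosome-depleted RNA was sequenced, and the authors aligned the reads to BDGP5.78/dm3 by TopHat and assigned them to genes by featureCounts. The signal analysed is the deposited normalised count, the read count divided by 1 size factor per library (DESeq in the submitters' notes, DESeq2 in the methods). FPKM values, deposited by the authors per gene length and library size, were used only to compare levels between subunits. Divided by the smallest step of their library, 100% of the values were whole reads (tolerance 0.01), which gave depths of 17368684 to 23410870 reads, so that values near 5 normalised counts stand for few reads. In Slbp 10/15 replicate 2, whose step of 0.99 is close to 1, 100% of values up to 50 were whole at that step and 0% at a step of 1.

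The test was limma 3.58.1 in R 4.3.3 on log2(normalised count + 1) for genes averaging 5 or more in either Slbp group, which understates differences of low genes. The fit had a trended variance, 1 term per genotype over all 8 libraries and no block, was two-sided, and used Benjamini-Hochberg adjustment over all genes tested at 0.05. The script was tested on simulated data. Exact intervals and folds used scipy 1.17.1. Positions are from the BDGP6.54 annotation, matched by gene identifier for 97.7% of tested genes. No sequence was used.

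Lists are described by counts and medians. Members, lists and tests were chosen with earlier results of these data known. Named by rule were Slbp, grp, the 12 largest differences each way among called genes with a higher mean of at least 50 and no overlap, and up to 4 genes per list. Others were chosen after their values were seen. Alternatives were a pseudocount of 5, 3 other filters, a replicate block, upper quartile and TMM scaling, edgeR 4.0.16 and DESeq2 1.42.0 on whole reads, only the 4 Slbp libraries, and leaving out each library.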

Additional observations from a re-analysis of the deposited data

Results flagged for a closer look

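For 20 called genes the Slbp groups lay on opposite sides of wt, each past an adjusted p of 0.05 in limma, 13 of them higher in Slbp 10/15 and 7 higher in Slbp 10/12. Both comparisons with wt share the wt libraries, and the difference between the Slbp groups was tested directly. Dh44-R2 had a log2 difference of 6.80 between Slbp 10/12 and Slbp 10/15, with Slbp 10/12 above and Slbp 10/15 below wt. Cyp12d1-d (-6.20), Cyp4p1 (-5.27) and CG17322 (-3.11) had Slbp 10/12 below and Slbp 10/15 above wt, as had CG11961 (-1.73) and Snx3 (-0.84), while Nnf1b (1.28) had the order of Dh44-R2. Cyp12d1-d and Cyp4p1 were listed at 0 in both Slbp 10/12 libraries, so that their fitted differences depend on the pseudocount. No group had the 4 or more libraries that a search for single outlying libraries needs.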

How the results depend on the processing

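The count of genes higher in Slbp 10/12 was 264, of genes higher in Slbp 10/15 229 and of genes called in all 493. They were 104, 97 and 201 with no filter (12868 genes tested), 508, 449 and 957 with DESeq2, and 143, 127 and 270 with only the 4 Slbp libraries, a fit with fewer samples. With a mean of at least 5 in any genotype (9868 genes tested) they were 179, 146 and 325. Leaving out 1 library at a time gave 18 to 309, 16 to 234 and 34 to 543, with 287 and 290 calls in all without wt replicate 2 and 1, and 81, 44, 77 and 34 without Slbp 10/12 replicate 1 and 2 and Slbp 10/15 replicate 1 and 2. A pseudocount of 5, upper quartile scaling, TMM scaling, edgeR and at least 5 in every Slbp library kept each count within 1.5 times, with 365 to 595 calls in all. The replicate number as a block gave 199, 198 and 397, of which 335 were shared, but numbers do not pair the samples, with a correlation of same-numbered deviations of -0.03 between the Slbp groups. No named gene that was called changed sign under any alternative, while the median of the late genes went from -0.55 to 0.38 without Slbp 10/15 replicate 1. Of the 493 genes 21 were called under all 18 alternatives, 101 in at least 1 fit without a Slbp library and 392 in none of these. Depth limits genes under 50 normalised counts most, and the spread between the Slbp 10/15 libraries limits late genes.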

Other observations

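A second run of called neighbours lay on chromosome 3L from 19063165 to 19096217 (BDGP6.54), where CG6812, the phosphatase gene Mkp3, MESR6 and CG11577 had log2 differences of 0.86, 0.54, -0.73 and -1.0. Mkp3, which switches off ERK signalling, had 2008 and 2101 normalised counts in Slbp 10/12 and 1493 and 1342 in Slbp 10/15. MESR6 had 777 and 841 in Slbp 10/12 and 1321 and 1354 in Slbp 10/15. Libraries did not overlap in either gene, as for 61.2% of all genes tested. The run was chosen after its values were seen. Both genes were called in 42 of all 7513 adjacent tested pairs, so nothing is read from it.

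Sxl, the switch gene of sex determination, was the 1 gene called among 16 of X counting and dosage compensation (6.25%, against 6.39% of all genes). Of the 16, 12 had a log2 difference below 0, with a median of -0.18, and libraries were higher in Slbp 10/15 without overlap for 62.5%, against 31.4% of all genes. Sxl went the other way. It had 4237 and 4770 normalised counts in Slbp 10/12, 3290 and 2920 in Slbp 10/15 and 5766 and 5344 in wt, with a log2 difference of 0.54 (SE 0.0852, adjusted p = 0.022 from limma), a call lost without either Slbp 10/12 library and without Slbp 10/15 replicate 2. Of 17 heat shock and chaperone genes only Hop, a co-chaperone, was called (5.88%, near the 6.39% of all genes). It had 6734 and 6494 in Slbp 10/12 and 5180 and 5189 in Slbp 10/15. Of the 17, 13 had a log2 difference above 0, with a median of 0.18. Their libraries were higher in Slbp 10/12 without overlap for 52.9%, against 29.8% of all genes. Of 30 maternal axis and germ plasm genes tud was called higher in Slbp 10/12 and tor, the receptor of the termini, higher in Slbp 10/15. That is 6.67%, near the 6.39% of all genes. By limma 0 of 90 small nucleolar RNAs and 0 of 22 small nuclear RNAs were called.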
